A study of Mus musculus with 31 samples.

Results

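Hyaluronan synthesis and binding genes were followed in the uterus of mice given estradiol. The 10 genes were chosen by name, with no threshold on their values: Ugdh, Has1, Has2, Has3, Tnfaip6, Vcan, Cd44, Lyve1, Hyal1 and Hyal2. They hold 17 probes of the array, of which 13 were bright enough to test, and 9 of the 10 genes had at least 1 tested probe among the 27061 genes tested. Uterine RNA from 31 samples was hybridised to 1-colour arrays, each sample to its own array. The 8 groups combine genotype and treatment: wild-type (WT) and mutant (KO) mice of the AF2 line, on the C57BL6/J background, and of the MISS line, on the C57BL6/N background, had each received placebo or 17β-estradiol (E2). All mice, controls included, had been ovariectomised at 4 weeks of age and rested for 3 weeks, and uteri were taken 6 h after an injection under the skin of castor oil that held E2 at 0 or 8 µg/kg. Groups had 4 arrays except AF2 KO E2, which had 3. As general background that the labels do not give, estrogen receptor α (gene Esr1) lacks activation function 2, the surface that binds coactivators, in AF2 mutants, whereas in MISS mutants it works in the nucleus but is lost from the cell membrane. Both are changes of the gene in every cell, not of the uterus alone, and the labels do not say whether WT mice were littermates. The 2 lines differ in substrain, so a difference between lines and a difference between substrains cannot be told apart.

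Hyaluronan is a long, unsulfated, negatively charged sugar polymer that holds water and swells the matrix between cells. It is spun out through the plasma membrane by the Has synthases from UDP-glucuronic acid, which Ugdh makes, and UDP-N-acetylglucosamine. Tnfaip6 and Vcan tie it into the matrix, Cd44 and Lyve1 bind it at the cell surface, and the hyaluronidases Hyal1 and Hyal2 cut it. In the uterus, estrogen is known for rapid water uptake and swelling of the stroma, and hyaluronan is known to build up in the cycling and pregnant uterus.

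Levels below are log2 signals relative to the 75th percentile of each array, so a difference of 1 is a 2-fold difference, and levels of different genes are not compared because each probe has its own brightness. The 75th percentile lay between 474.7 and 918.4 intensity units, and 61.8 to 77.1% of probes were well above background. A gene was called at a limma adjusted p under 0.05 over all genes tested. The number of arrays limits the precision, and since the labels do not say that samples came from separate mice, p-values measure the spread between these samples. Smooth muscle (7 of 7), stroma (7 of 7) and epithelial markers (8 of 8) were all bright enough to test, which needs only 1 group. Genes of these cell types were thus present, but they do not by themselves check the tissue label. Esr1 was measured by 4 tested probes. Its brightest probe averaged 2.86 to 3.42 in the 8 groups, which checks no label because the labels do not say whether the mutations change the part of the transcript that the probe reads. In whole tissue, fewer cells of a type and less RNA per cell cannot be told apart.

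Of the 10 genes, 5 were called with E2 in both wild types (Has1, Has2, Ugdh, Lyve1 and Hyal2), and 3 of these have a promoter window in RefSeq's table (GRCm38.p6): Has1, Ugdh and Hyal2. The 250 bases before each start site are shown 5′ to 3′ on the gene's strand, because Has1 and Hyal2 rose together with E2 while Ugdh fell. Capitals mark matches on either strand to the motifs searched: an estrogen response element (GGTCANNNTGACC), AGGTCA, which is an arm of that element, an AP-1 site (TGANTCA), a cyclic AMP response element (TGACGTCA) and a GC box (GGGCGG).
Has1: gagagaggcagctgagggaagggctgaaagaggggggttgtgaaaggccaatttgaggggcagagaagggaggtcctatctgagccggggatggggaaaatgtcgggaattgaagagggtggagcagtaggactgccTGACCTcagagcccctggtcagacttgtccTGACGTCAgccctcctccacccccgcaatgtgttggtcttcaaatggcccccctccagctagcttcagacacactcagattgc
Ugdh: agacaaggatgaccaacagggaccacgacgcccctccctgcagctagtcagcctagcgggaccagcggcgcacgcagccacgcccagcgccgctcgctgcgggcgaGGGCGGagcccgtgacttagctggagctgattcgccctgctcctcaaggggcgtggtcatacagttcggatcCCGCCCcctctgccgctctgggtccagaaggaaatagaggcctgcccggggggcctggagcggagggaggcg
Hyal2: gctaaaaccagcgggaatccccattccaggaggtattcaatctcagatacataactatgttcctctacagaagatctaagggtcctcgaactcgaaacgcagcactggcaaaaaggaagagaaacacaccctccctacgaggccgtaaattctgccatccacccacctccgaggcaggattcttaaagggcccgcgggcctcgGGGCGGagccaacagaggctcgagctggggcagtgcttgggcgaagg
The Has1 window is chr17:17855189-17855438 (minus strand), the Ugdh window chr5:65435843-65436092 (minus strand) and the Hyal2 window chr9:107568913-107569162 (plus strand). Has1 held TGACGTCA, 83 to 76 bases before its start site, a motif found in 1.55% of the 32851 windows of the same length, and AGGTCA on the other strand, 113 to 108 bases before it, found in 14% of windows. Ugdh held 2 GC boxes and Hyal2 held 1, a motif in 32.7% of windows. The full estrogen response element was in 0.0639% of all windows and in 0 of the 7 windows of these genes. Outside these 3, Tnfaip6 had TGANTCA, 142 to 136 bases before its start site, which 6.75% of windows hold, AGGTCA on the other strand, 65 to 60 bases before it, and 1 GC box. Vcan and Hyal1 had 2 GC boxes each. These matches describe letters only and say nothing of binding.

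Has1, one of the synthases, rose 55.0 to 67.9-fold with E2 in AF2 WT, MISS WT and MISS KO and did not pass the test in AF2 KO. With normexp background correction the rises were 23.1 to 25.3-fold. Its probe was well above background on all 31 arrays. In AF2 WT, its level was -4.05, -4.26, -4.23 and -4.35 on the placebo arrays and 2.10, 1.51, 2.0 and 1.84 on the E2 arrays. In AF2 KO, it was -4.65, -5.05, -4.49 and -4.58 with placebo and -4.56, -3.75 and -5.18 with E2. The WT groups lay far apart, whereas the KO groups overlapped. The rise in AF2 WT was 6.08 ± 0.32 on the log2 scale (SE, 67.9-fold, limma adjusted p = 1.04e-14), at rank 16 from the highest of the 27061 genes. In AF2 KO the change was 0.20 ± 0.35 (95% interval -0.52 to 0.91, limma adjusted p = 0.85). The difference between these responses was -5.89 ± 0.47 (limma adjusted p = 1.28e-10).

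Has1 responded in both genotypes of the MISS line. In MISS WT, its level was -4.06, -2.96, -4.78 and -3.96 with placebo and 2.22, 2.15, 2.01 and 0.98 with E2. In MISS KO, it was -4.08, -4.24, -4.81 and -4.90 with placebo and 1.32, 2.05, 1.15 and 1.46 with E2. Every E2 array stood above every placebo array in both genotypes. Has1 rose by 5.78 ± 0.32 in MISS WT (55.0-fold) and by 6.00 ± 0.32 in MISS KO (64.0-fold), with limma adjusted p of 1.74e-14 and 1.1e-14. The difference between them was 0.22 ± 0.45 (limma adjusted p = 0.905), with a 95% interval of -0.71 to 1.15. Has1 means of the 3 responding E2 groups were 1.86, 1.84 and 1.49, and those of the 5 other groups lay between -4.69 and -3.94. Groups next to each other in the order of their means overlapped within each set. AF2 KO placebo lay below AF2 WT placebo on every array, by 0.47 ± 0.32 (limma adjusted p = 0.424). The rises were smaller with normexp background correction, at 4.63 in AF2 WT, 4.66 in MISS WT and 4.53 in MISS KO, and in the authors' deposited matrix, whose processing is not given, at 5.19, 4.77 and 4.84.

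Has2, the synthase that is essential in the embryo, fell with E2 in both wild types. In the AF2 line, Has2 was -2.98, -2.91, -2.92 and -2.69 in WT with placebo and fell to -3.83, -4.54, -3.64 and -3.91 with E2. In AF2 KO it was -2.61, -2.87, -2.97 and -2.78 with placebo and -3.32, -1.77 and -3.08 with E2. The WT groups did not overlap, and 1 KO array of E2 was above all others. Has2 fell by 1.1 ± 0.27 in AF2 WT (2.15-fold, limma adjusted p = 9.77e-04), with 0.09 ± 0.29 in AF2 KO (limma adjusted p = 0.931). With normexp the fall in AF2 WT was 0.49 on the log2 scale (limma adjusted p = 0.00623). The responses differed by 1.19 ± 0.40 (limma adjusted p = 0.0142). That call rested on the AF2 KO E2 array at -1.77: without it the difference was 0.71 (limma adjusted p = 0.091) and the AF2 KO change -0.39. It was also lost with quantile normalization (0.83), median scaling (0.79) and the authors' deposited matrix (0.55), at limma adjusted p of 0.093, 0.101 and 0.0836.

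In the MISS line, Has2 was -2.31, -2.30, -2.31 and -2.94 in WT with placebo and -3.36, -3.38, -3.35 and -3.01 with E2, with no overlap. In MISS KO it was -2.86, -3.83, -3.09 and -3.49 with placebo and -3.35, -2.62, -3.47 and -3.71 with E2, and these groups overlapped throughout. Has2 fell by 0.81 ± 0.27 in MISS WT (limma adjusted p = 0.0112), and its change in MISS KO was 0.03 ± 0.27 (limma adjusted p = 0.933). Called in one genotype and not in the other, Has2 was not shown to differ between them: the difference was 0.84 ± 0.38 (95% interval 0.06 to 1.62, limma adjusted p = 0.421). The placebo level of Has2 in MISS KO was 0.85 ± 0.27 below that of MISS WT, which did not pass the test either (limma adjusted p = 0.15). Has3, the remaining synthase, stayed near background: it was well above it on 14 of 31 arrays and on every array of no group, so it was not tested. Its levels ran from -6.77 to -4.63 over all arrays.

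**Figure D1:**
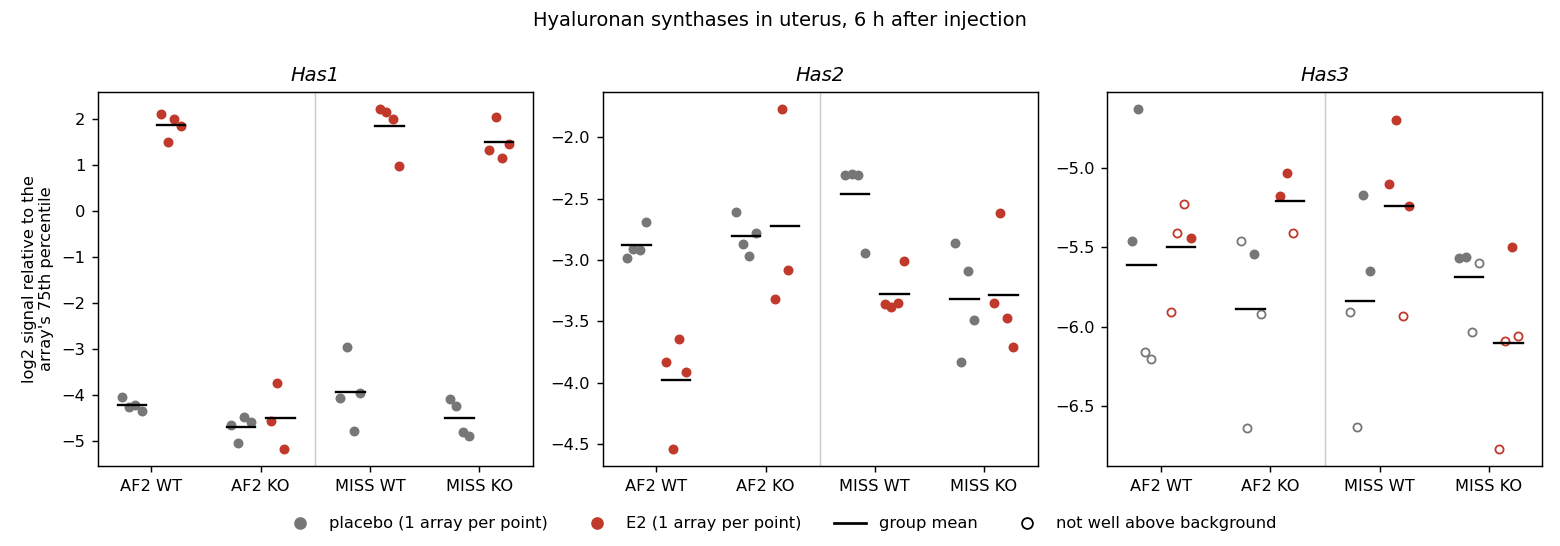
Levels of Has1, Has2 and Has3 (log2 signal relative to the 75th percentile of the array) by genotype, with 1 point per array, placebo in grey and E2 in red, black lines at group means and open points where the probe was not well above background. Has1 is at 0.98 or higher in the E2 groups of AF2 WT, MISS WT and MISS KO and at -2.96 or lower elsewhere, Has2 is lower with E2 in both wild types, and the groups of Has3 overlap.

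Over the 9 tested genes, E2 changed 6 in AF2 WT (3 higher, 3 lower), against 57.6% of all genes called in that comparison (27.6% higher, 30.1% lower). In AF2 KO, E2 changed 0 of 9 (limma, with 2 at an unadjusted p under 0.05), against 3.68% of all genes (3.13% higher, 0.554% lower). E2 changed 7 in MISS WT (4 higher, 3 lower) and 7 in MISS KO (5 higher, 2 lower), against 62.2% of all genes in MISS WT (35.1% higher, 27.1% lower) and 57.3% in MISS KO (30.1% higher, 27.2% lower). The responses of AF2 KO and WT differed for 5 of 9 (2 higher and 3 lower in KO), against 51.9% of all genes (29% higher, 22.9% lower), and those of MISS KO and WT for 0 of 9 (limma, with 1 at an unadjusted p under 0.05), against 0.898% (0.244% higher, 0.654% lower). These shares are near those of all genes, so the number of hyaluronan genes called is not a result about them. The same holds for non-overlap: placebo and E2 arrays did not overlap for 6 of 9 in AF2 WT (49.6% of all genes), 1 of 9 in AF2 KO (16.6%), 6 of 9 in MISS WT (54.8%) and 7 of 9 in MISS KO (53.1%). Their median log2 fold change was -0.20 in AF2 WT (-0.07 over all genes), -0.05 in AF2 KO (0.04), 0.39 in MISS WT (0.16) and 0.59 in MISS KO (0.03). Scaling each array by its median in place of its 75th percentile moved the median of all genes in AF2 WT to 0.15, that in AF2 KO to -0.13, that in MISS KO to 0.16 and that of the AF2 response difference from 0.18 to -0.21. The split between higher and lower genes then became 4 and 2 in AF2 WT, 5 and 1 in MISS KO, and 0 and 5 in the AF2 response difference, where it was 2 and 3. With quantile normalization, the split was 4 and 3 in AF2 WT and 1 and 4 in the AF2 response difference.

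**Figure D2:**
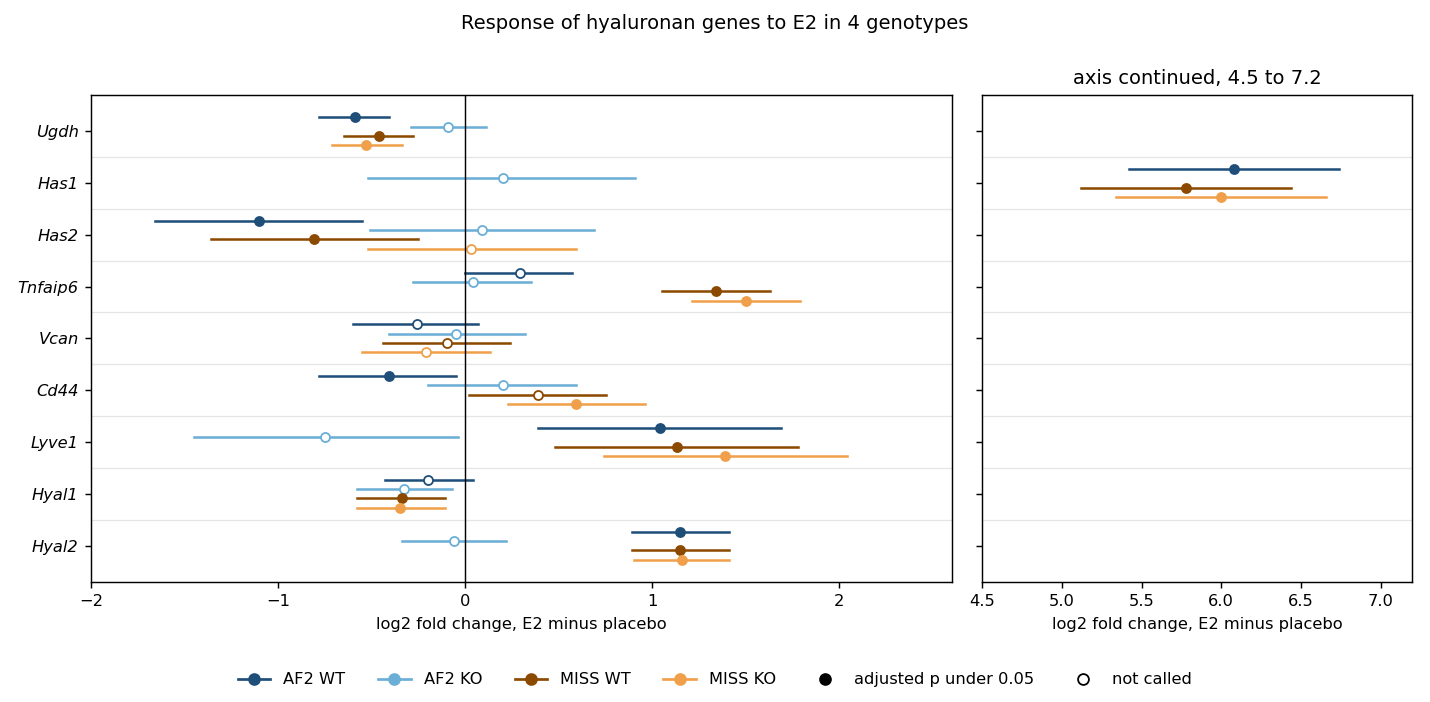
Log2 fold change of E2 minus placebo for the 9 tested genes in the 4 genotypes, with 95% intervals as lines, filled points for an adjusted p under 0.05 and the axis continued in a second panel for Has1. Points of AF2 KO lie between -0.75 (Lyve1) and 0.20 (Has1 and Cd44) and are open for every gene, and the widest gap between MISS WT and MISS KO is that of Has2 (0.84).

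Ugdh, the dehydrogenase that supplies UDP-glucuronic acid, fell with E2 in the same 3 genotypes in which Has1 rose. In AF2 WT, it was 2.22, 2.67, 2.40 and 2.53 with placebo and 1.99, 1.82, 1.89 and 1.76 with E2, without overlap. Ugdh was 2.80, 2.58, 2.53 and 2.61 in AF2 KO with placebo and 2.53, 2.59 and 2.51 with E2, with overlap. In MISS WT, Ugdh went from 2.64, 2.50, 2.56 and 2.50 to 2.09, 2.03, 2.13 and 2.10, and in MISS KO from 2.73, 2.69, 2.63 and 2.69 to 2.22, 2.25, 2.27 and 1.88, without overlap in either. It fell by 0.59 ± 0.09 in AF2 WT (1.51-fold, limma adjusted p = 2.41e-06), by 0.46 ± 0.09 in MISS WT (6.64e-05) and by 0.53 ± 0.09 in MISS KO (1.2e-05), with -0.09 ± 0.10 in AF2 KO (limma adjusted p = 0.729). The AF2 responses of Ugdh differed by 0.51 ± 0.13 (limma adjusted p = 0.00223). With median scaling this difference was 0.11 (limma adjusted p = 0.542), and within slide 1 it was -0.03.

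Of 9 other enzymes on the way to the precursors, all tested, 6 rose and 1 fell in AF2 WT (27.6% and 30.1% of all genes), 0 changed in AF2 KO (3.13% and 0.554%), 7 rose and 1 fell in MISS WT (35.1% and 27.1%), and 6 rose and 1 fell in MISS KO (30.1% and 27.2%). These counts carry no test against other genes. In AF2 WT, Hk2, a hexokinase that phosphorylates glucose, rose by 4.27 ± 0.23, Uap1, which makes UDP-N-acetylglucosamine, by 1.3 ± 0.08, and Gfpt2, of the entry step of the hexosamine pathway, by 1.26 ± 0.18. The one that fell, named after its value was seen, was Nagk, a kinase that salvages N-acetylglucosamine (-1.05 ± 0.13). In AF2 KO, Hk2, Uap1 and Gfpt2 stood at 0.28 ± 0.25, 0.18 ± 0.09 and -0.04 ± 0.19, not called. The list's median was 0.47 in AF2 WT and 0.03 in AF2 KO, against -0.07 and 0.04 over all genes.

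Tnfaip6 rose with E2 in the MISS line, and its response differed between the wild types. This secreted protein moves heavy chains of inter-α-inhibitor onto hyaluronan. In MISS WT, Tnfaip6 was -1.56, -1.83, -1.65 and -2.03 with placebo and -0.20, -0.44, -0.27 and -0.81 with E2. In AF2 WT it was -2.09, -2.08, -2.0 and -1.92 with placebo and -1.62, -1.83, -1.74 and -1.74 with E2. Groups did not overlap in either wild type, and the lowest MISS WT array with E2 was above the highest AF2 WT array. Tnfaip6 rose by 1.34 ± 0.14 in MISS WT (2.53-fold, limma adjusted p = 4.24e-09), and its change in AF2 WT was 0.29 ± 0.14 (limma adjusted p = 0.0846). The difference between these responses was 1.05 ± 0.20 (limma adjusted p = 0.0012), and the difference within each of the 4 slides lay between 0.90 and 1.15.

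Tnfaip6 also rose in MISS KO, where it was -2.39, -1.84, -1.72 and -1.98 with placebo and -0.73, -0.24, -0.45 and -0.51 with E2, a rise of 1.5 ± 0.14 (2.83-fold, limma adjusted p = 5.62e-10). In AF2 KO it was -2.33, -2.57, -2.33 and -2.12 with placebo and -2.41, -2.16 and -2.34 with E2 (0.04 ± 0.15, limma adjusted p = 0.947). The AF2 responses of Tnfaip6 differed by -0.25 ± 0.21 (limma adjusted p = 0.324), a difference that passed with quantile normalization (-0.50, 0.0352) and median scaling (-0.64, 0.00999) and was 0.05 with the mean of the tested probes, and those of MISS by 0.16 ± 0.20 (95% interval -0.25 to 0.57, 0.821). The small change in AF2 WT passed the test with quantile normalization (0.44, limma adjusted p = 0.00594), median scaling (0.50, 0.00284) and the authors' deposited matrix (0.33, 0.0145). A second, dimmer probe of Tnfaip6 gave 0.08 ± 0.19 in AF2 WT, 1.12 ± 0.19 in MISS WT and 0.78 ± 0.19 in MISS KO. In AF2 KO it gave 0.42 ± 0.20 (limma adjusted p = 0.303). Its difference between wild types was 1.04 ± 0.26 (limma adjusted p = 0.0143). Under placebo, however, this probe stood 0.63 ± 0.19 lower in MISS WT than in AF2 WT (limma adjusted p = 0.0303). The brightest probe stood 0.25 ± 0.14 higher there (limma adjusted p = 0.302). A further probe was well above background on 9 of 31 arrays and was not tested.

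Between the wild types, E2 responses differed for 2 of 9 genes, Tnfaip6 and Cd44, both higher in MISS WT, against 9.5% of all genes (6.4% higher, 3.11% lower). Markers of other cells were also called with E2, in counts that carry no test. Over all genes, 27.6% were higher and 30.1% lower in AF2 WT, and 35.1% and 27.1% in MISS WT. These shares were 30.1% and 27.2% in MISS KO, and 3.13% and 0.554% in AF2 KO. Of 7 smooth muscle markers, 5 rose and 1 fell in MISS WT and 0 rose and 1 fell in AF2 WT, and their mean level ran from 5.55 to 6.96 on MISS WT placebo arrays, 6.33 to 6.74 with E2, and 6.09 to 6.58 on all AF2 WT arrays. Of 7 macrophage markers, 0 rose and 3 fell in MISS WT, where the mean level ran from 1.13 to 2.48 with placebo and 0.99 to 1.31 with E2, and 1 rose and 3 fell in AF2 WT, where it ran from 0.41 to 1.22 and 0.17 to 0.62. Of 7 stromal markers, 0 rose and 6 fell in AF2 WT, where the mean level ran from 4.73 to 5.08 with placebo and 3.80 to 4.06 with E2, 0 rose and 4 fell in MISS WT (4.59 to 5.31 and 4.00 to 4.45), 0 and 3 in MISS KO and 0 and 2 in AF2 KO. Of 7 lymphocyte markers, 0 rose in either wild type, and 0 fell in AF2 WT and 4 in MISS WT. Of 7 granulocyte markers, 3 rose and 0 fell in AF2 WT, and 3 rose and 1 fell in MISS WT. The part of these cells in the Tnfaip6 and Cd44 results was not tested.

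Cd44, the main cell-surface receptor of hyaluronan, gave a lower level with E2 in AF2 WT and a higher one in MISS WT by its brightest probe. In AF2 WT, it was 0.34, 0.55, 0.18 and 0.21 with placebo and -0.02, -0.12, 0.05 and -0.29 with E2, a fall of 0.41 ± 0.18 (limma adjusted p = 0.0486). In MISS WT, Cd44 was 0.31, 1.05, 0.08 and -0.18 with placebo and 0.51, 0.85, 0.78 and 0.66 with E2, a change of 0.39 ± 0.18 (limma adjusted p = 0.061). The AF2 WT groups did not overlap, whereas 1 MISS WT placebo array, at 1.05, stood above every E2 array. That array, replicate 2, also had the highest mean level of macrophage markers (2.48, against 1.5 on the next array) and of lymphocyte markers (0.46, against -0.12), and the part of these cells in Cd44 was not tested. Without it, Cd44 rose in MISS WT by 0.63 (limma adjusted p = 5.11e-04). The change also passed with a slide block (0.39, limma adjusted p = 0.0292), normexp (0.37, 0.0434) and median scaling (0.43, 0.0473), whereas within slide 2 it was -0.20. The AF2 WT call is marginal: it was lost in 22 of the 31 fits that left out 1 array, with limma adjusted p of 0.0503 to 0.143 there.

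Cd44 rose in MISS KO, from 0.09, -0.02, 0.08 and -0.17 with placebo to 0.49, 0.81, 0.51 and 0.55 with E2 (0.59 ± 0.18, limma adjusted p = 0.00546). In AF2 KO it was -0.38, -0.26, 0.01 and -0.37 with placebo and -0.36, 0.30 and -0.10 with E2 (0.20 ± 0.19, limma adjusted p = 0.675). The response difference between wild types was 0.80 ± 0.25 (limma adjusted p = 0.0433), and within slides it lay between 0.47 and 1.35. It was lost in 13 of 31 fits that left out 1 array, with values of 0.63 to 0.84. This call did not hold with quantile normalization (0.76, limma adjusted p = 0.0667), median scaling (0.63, 0.149), the authors' deposited matrix (0.72, 0.0553), no filter on dim probes (0.80, 0.0572) or the mean of the tested probes (0.42, 0.39). The AF2 responses of Cd44 differed by 0.61 ± 0.26 (limma adjusted p = 0.0523), which passed with normexp (0.0386), the authors' deposited matrix (0.0442), a slide block (0.0136) and only probes well above background on all arrays (0.0477), and in 6 of 31 fits that left out 1 array (0.0114 to 0.0493). The fall in AF2 WT was lost with median scaling (-0.19, limma adjusted p = 0.398), no filter (-0.41, 0.0641) and the mean of probes (-0.27, 0.257).

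The probes of Cd44 differed in which results were called, and no test compared the probes with each other. A probe that lies at chr2:102677971-102678030 (mm9, minus strand), where the array annotation lists 3 RefSeq transcripts against 4 for the others, is shown because it reads another stretch of Cd44 than the brightest one, at chr2:102651398-102651457 (no part is marked).
Cd44 probe: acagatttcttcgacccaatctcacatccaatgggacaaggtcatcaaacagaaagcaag
It gave -0.48 ± 0.24 in AF2 WT, -0.09 ± 0.24 in MISS WT and 0.43 ± 0.24 in MISS KO, none called, with a difference between wild types of 0.39 ± 0.34 (limma adjusted p = 0.564). A further tested probe gave 0.08 ± 0.30, 0.16 ± 0.30 and 0.37 ± 0.30, also not called, with a difference of 0.08 ± 0.43 (limma adjusted p = 0.946). Calls for Cd44 thus come from 1 of its 3 tested probes, and the remaining probe was too dim to test.

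Lyve1, a hyaluronan receptor of lymphatic endothelium and of some tissue macrophages, rose with E2 except in AF2 KO. In AF2 WT, it was -1.08, -0.12, -1.33 and 0.39 with placebo and 0.31, 0.04, 1.12 and 0.55 with E2. In AF2 KO, Lyve1 was -0.42, -0.44, -1.10 and -0.56 with placebo and -1.49, -1.09 and -1.55 with E2. Placebo arrays of AF2 WT were widely spread and overlapped the E2 arrays, and in AF2 KO the E2 arrays lay at the low end. Lyve1 rose by 1.04 ± 0.32 in AF2 WT (2.06-fold, limma adjusted p = 0.00634), with -0.75 ± 0.34 in AF2 KO (limma adjusted p = 0.253). The AF2 responses differed by -1.79 ± 0.47 (limma adjusted p = 0.00222). Within slides, the rise in AF2 WT ran from 0.17 to 2.45.

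In the MISS line, the placebo and E2 arrays of Lyve1 did not overlap. It was -0.60, 0.55, 0.06 and -0.39 with placebo and 1.08, 1.13, 1.16 and 0.77 with E2 in WT, a rise of 1.13 ± 0.32 (limma adjusted p = 0.00308). In KO it was -0.19, -0.39, -0.97 and -0.27 with placebo and 0.54, 1.34, 1.38 and 0.47 with E2, a rise of 1.39 ± 0.32 (limma adjusted p = 4.6e-04). Of 6 other listed markers of lymphatic endothelium, 5 were tested (Prox1, Flt4, Pdpn, Mmrn1 and Reln). Of these, 0 rose and 3 fell in AF2 WT, where Prox1, the transcription factor of lymphatic identity, changed by -1.24 ± 0.39 (limma adjusted p = 0.00793), and 0 rose and 1 fell, Reln, in each MISS genotype. Their mean level ran from -1.69 to -0.77 on AF2 WT placebo arrays and -2.22 to -1.46 with E2, and from -1.35 to -0.83 and -1.44 to -1.28 in MISS WT. In AF2 WT E2, 2 of 4 arrays had Prox1 well above background. Of 7 blood endothelium markers, 3 rose and 0 fell in AF2 WT, 0 and 1 in AF2 KO, and 3 and 1 in each MISS genotype. Counts of both lists carry no test and are read against the shares of all genes given above. For the blood endothelium markers, levels are given as well. Their mean level ran from 0.71 to 0.97 with placebo and 1.33 to 1.4 with E2 in AF2 WT, and 0.72 to 0.95 and 0.56 to 0.68 in AF2 KO. In MISS WT it ran from 0.64 to 1.06 and 1.27 to 1.39, and in MISS KO from 0.87 to 0.95 and 1.29 to 1.48. The median change of these markers was -0.09 in AF2 WT, -0.33 in AF2 KO, 0.16 in MISS WT and 0.12 in MISS KO. In AF2 WT, Eng went from 1.42 to 3.95 and Kdr from 1.64 to 2.76, while Cdh5, Emcn, Tek and Tie1 stood lower with E2, not called. The part of these cells and of macrophages, described above for both wild types, in the Lyve1 result was not tested.

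Vcan, the large proteoglycan whose link modules bind hyaluronan, did not pass the test with E2 in any genotype, but its level was higher in AF2 KO. It was -1.21, -1.18, -1.44 and -1.22 in AF2 WT with placebo and -0.24, -0.77, -0.33 and -0.15 in AF2 KO with placebo, without overlap. With E2, Vcan was -1.54, -1.74, -1.37 and -1.46 in AF2 WT and -0.67, -0.10 and -0.48 in AF2 KO. Under placebo the difference was 0.89 ± 0.16 (1.85-fold, limma adjusted p = 7.62e-04). In the MISS line, Vcan was -0.87, -0.72, -0.76 and -1.08 in WT and -0.33, -1.08, -0.92 and -0.98 in KO with placebo, with overlap and a difference of 0.03 ± 0.16 (limma adjusted p = 0.986). E2 minus placebo was -0.26 ± 0.16 in AF2 WT, -0.05 ± 0.18 in AF2 KO, -0.10 ± 0.16 in MISS WT and -0.21 ± 0.16 in MISS KO, with 95% intervals that reach -0.60 at the lowest and 0.32 at the highest. A second probe of Vcan, at chr13:89851810-89851869 (mm9, minus strand), is shown because it gave a smaller difference (no part is marked).
Vcan probe: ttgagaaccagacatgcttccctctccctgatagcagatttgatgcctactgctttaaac
By this probe Vcan was 0.45 ± 0.15 higher in AF2 KO with placebo (limma adjusted p = 0.0594), and these groups overlapped. Stromal markers, cells in which Vcan is commonly made, were called in 0 of 7 in that comparison, with a median difference of 0.08. Of these markers, Col1a1 and Col3a1 stood 0.93 ± 0.41 and 0.94 ± 0.38 higher in AF2 KO (limma adjusted p of 0.175 and 0.127). The mean level of the stromal list ran from 4.73 to 5.08 in AF2 WT and 5.06 to 5.50 in AF2 KO. Of 8 epithelial markers, 4 were higher and 1 lower in AF2 KO, against 3.37% and 5.67% of all genes. The 5 adipocyte markers had a median difference of 1.24, none called, with mean levels of -1.81 to 0.74 in AF2 WT and -0.86 to 1.56 in AF2 KO. The part of these cells was not tested.

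Under placebo, AF2 KO and WT differed for 2 of 9 genes, Vcan and Cd44, against 9.05% of all genes (3.37% higher, 5.67% lower), a split of 1 higher and 1 lower that became 2 higher, Vcan and Ugdh, with median scaling. Cd44 was 0.57 ± 0.18 lower in AF2 KO (limma adjusted p = 0.0426), a call lost with no filter (0.0514), the mean of probes (0.142) and median scaling (0.162), and in 7 of 31 fits that left out 1 array (values of -0.62 to -0.49). Groups did not overlap for 4 of 9 genes, Has1, Tnfaip6, Vcan and Cd44, against 14.2% of all genes. MISS KO and WT differed for 0 of 9 (limma, 1 at an unadjusted p under 0.05), against 0.85% of all genes (0.399% higher, 0.451% lower), with overlap for each of the 9 (5.7% of all genes did not overlap). MISS WT and AF2 WT differed for 0 of 9 (limma, 1 at an unadjusted p under 0.05), against 11.7% (3.04% higher, 8.61% lower), and 1 of 9, Vcan, did not overlap, against 12.3%.

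**Figure D3:**
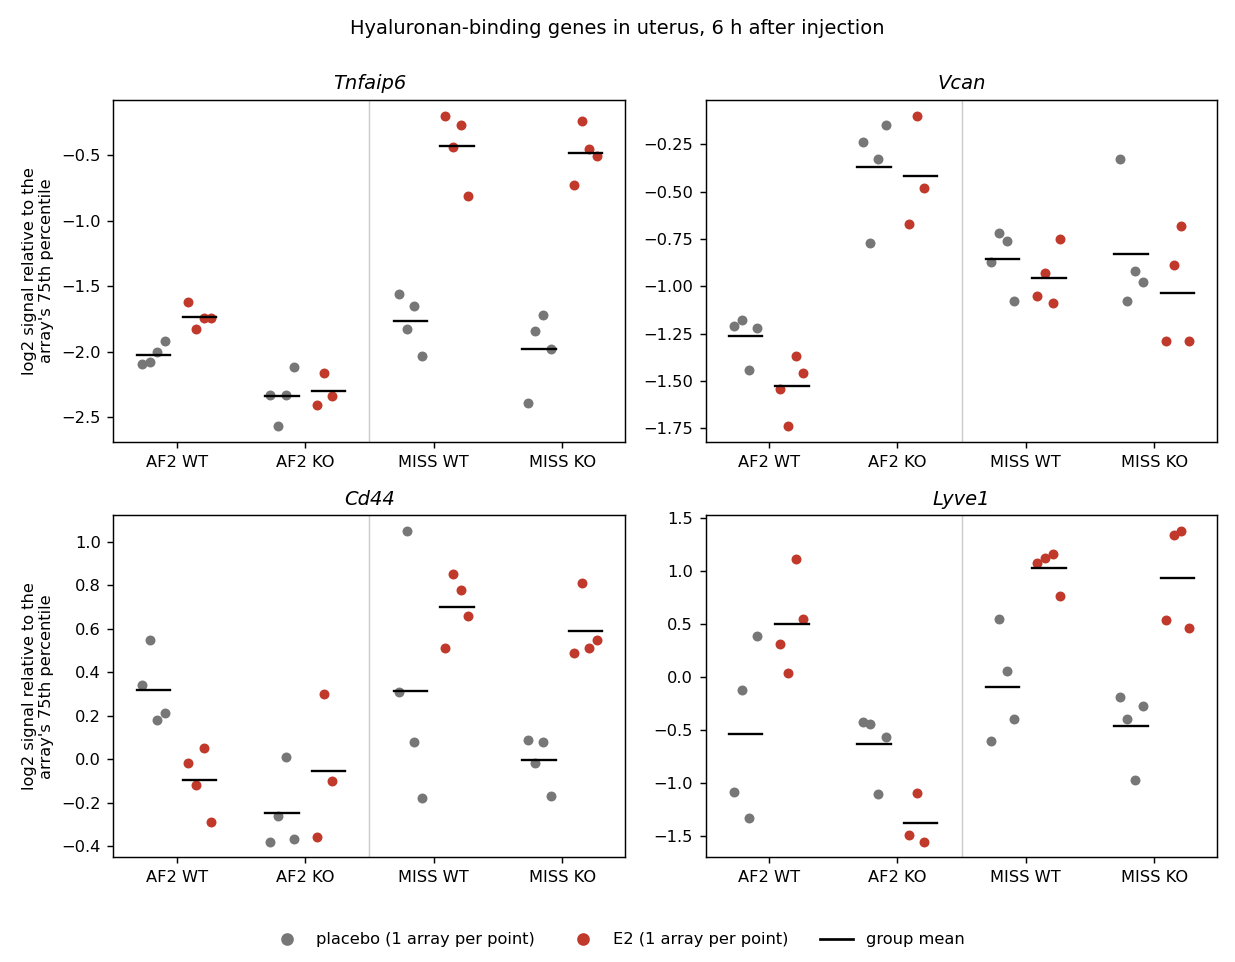
Levels of Tnfaip6, Vcan, Cd44 and Lyve1 (log2 signal relative to the 75th percentile of the array) by genotype, with 1 point per array, placebo in grey, E2 in red and black lines at group means. Tnfaip6 is at -0.81 or higher in the E2 groups of the MISS line and at -1.56 or lower elsewhere, Vcan is at -0.77 or higher on every AF2 KO array, 1 MISS WT placebo array of Cd44 stands at 1.05, and the mean of Lyve1 is lowest in AF2 KO with E2 (-1.38).

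Of the hyaluronidases, Hyal2 rose with E2 in AF2 WT and both MISS genotypes, and a slight fall of Hyal1 was called in both MISS genotypes. Hyal2 sits on the cell surface and cuts long chains, and Hyal1 works in lysosomes on the fragments. Hyal2 was 3.35, 3.21, 3.09 and 3.09 in AF2 WT with placebo and 4.45, 4.36, 4.44 and 4.10 with E2, and 3.20, 3.34, 3.00 and 2.83 in AF2 KO with placebo and 3.10, 2.96 and 3.03 with E2. The WT groups were apart and the KO groups overlapped. It rose by 1.15 ± 0.12 in AF2 WT (2.22-fold, limma adjusted p = 9.76e-09), with -0.06 ± 0.13 in AF2 KO, and the responses differed by -1.21 ± 0.18 (limma adjusted p = 4.25e-06). In MISS WT, Hyal2 was 3.23, 3.17, 3.00 and 2.98 with placebo and 4.37, 4.47, 4.03 and 4.12 with E2, and in MISS KO it was 3.42, 3.35, 3.08 and 2.88 with placebo and 4.51, 4.39, 4.26 and 4.2 with E2, without overlap in either. These rises were 1.15 ± 0.12 (limma adjusted p = 7.85e-09) and 1.16 ± 0.12 (8.18e-09), with a difference of 0.00 ± 0.18 and a 95% interval of -0.36 to 0.37.

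Hyal1 fell by 0.34 ± 0.11 in MISS WT (limma adjusted p = 0.0111) and by 0.35 ± 0.11 in MISS KO (limma adjusted p = 0.0107). In MISS WT, its level was 0.47, 0.45, 0.64 and 0.27 with placebo and 0.11, 0.47, 0.00 and -0.12 with E2, with overlap, and within slide 2 the change was 0.02. In MISS KO, Hyal1 was 0.45, 0.70, 0.58 and 0.46 with placebo and 0.28, 0.34, 0.18 and -0.01 with E2, without overlap. In AF2 WT, Hyal1 was 0.64, 0.20, 0.37 and 0.20 with placebo and 0.16, 0.21, 0.07 and 0.19 with E2, and in AF2 KO 0.33, 0.26, 0.13 and 0.16 with placebo and 0.03, -0.17 and -0.19 with E2, with no overlap in AF2 KO. Its changes in AF2 WT and AF2 KO were -0.20 ± 0.11 and -0.33 ± 0.12, neither called (limma adjusted p of 0.141 and 0.152). Called in one line and not in the other, Hyal1 was not shown to respond differently. The difference between wild types was -0.14 ± 0.16 (limma adjusted p = 0.654). That in the AF2 line was -0.13 ± 0.17 (limma adjusted p = 0.547), and it passed with median scaling (-0.52, 0.00867). Hyal1 in MISS WT did not pass without E2 replicate 4 (-0.27, limma adjusted p = 0.0548), nor in MISS KO without E2 replicate 4 (-0.28, 0.052) or with median scaling (-0.23, 0.0829). With median scaling the AF2 KO value of Hyal1 passed (-0.50, limma adjusted p = 0.0127).

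**Figure D4:**
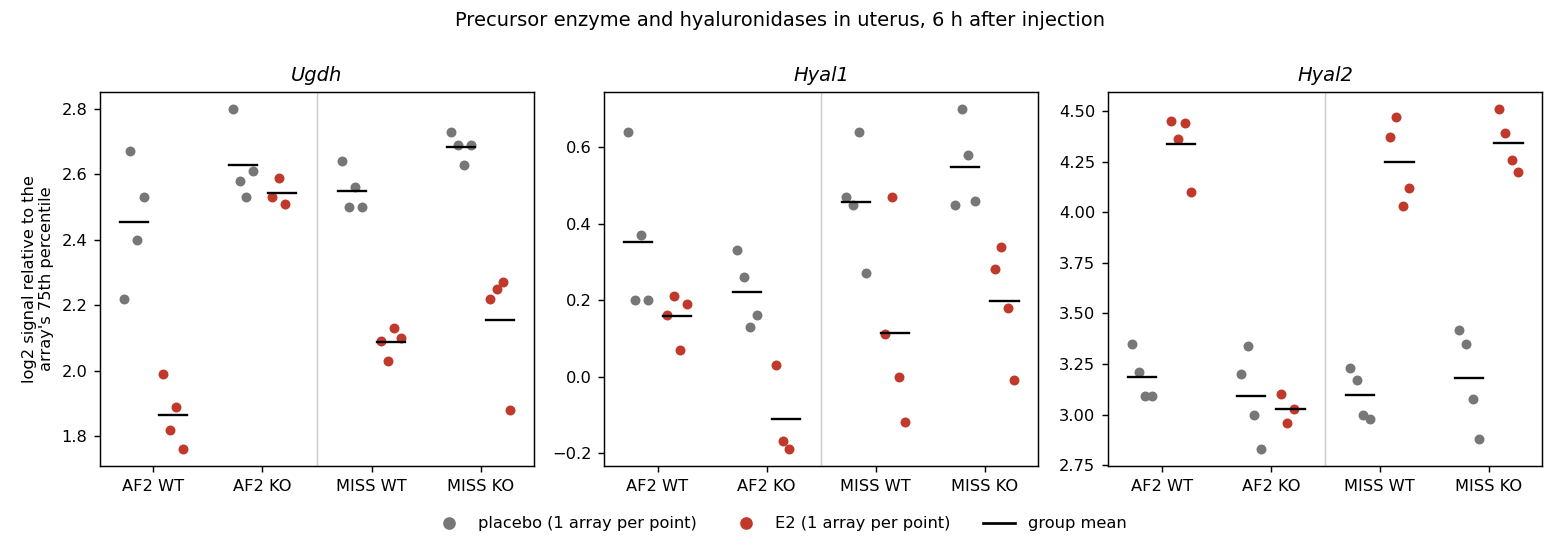
Levels of Ugdh, Hyal1 and Hyal2 (log2 signal relative to the 75th percentile of the array) by genotype, with 1 point per array, placebo in grey, E2 in red and black lines at group means. Hyal2 stands at 4.03 or higher with E2 except in AF2 KO, Ugdh is lower with E2 in the same genotypes, and the groups of Hyal1 lie close to each other.

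Beyond the 10 genes, 46 other genes of hyaluronan metabolism were listed by role and 41 were tested. In AF2 WT 17 rose and 11 fell (27.6% and 30.1% of all genes), in MISS WT 19 and 12 (35.1% and 27.1%), in MISS KO 18 and 11 (30.1% and 27.2%), and in AF2 KO 1 and 1 (3.13% and 0.554%). The counts by role below are read against these same shares. Of 6 tested genes of degradation, 1 rose and 2 fell in AF2 WT. Hexa and Gusb (β-glucuronidase), lysosomal enzymes that trim sugars from the fragments, fell by 0.84 ± 0.11 and 0.60 ± 0.09, and Hyal3, of the hyaluronidase family, rose by 0.64 ± 0.19. Of 9 receptors and their linkers, 3 rose and 4 fell in AF2 WT: Ezr (ezrin), which anchors Cd44 to actin, rose by 1.73 ± 0.09, while the receptors Layn (layilin) and Tlr4 fell by 1.67 ± 0.10 and 1.62 ± 0.14. In AF2 KO the changes of Hexa, Gusb, Hyal3, Ezr, Layn and Tlr4 lay between -0.21 and 0.13 and were not called. The genes called in AF2 KO, named after their values were seen, were Hmmr, an intracellular hyaluronan-binding protein (0.37 ± 0.10, limma adjusted p = 0.0458), and Fbln1 (fibulin-1), which binds proteoglycans (-0.71 ± 0.17, 0.0149).

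Of 17 tested matrix binders, 7 rose and 4 fell in AF2 WT, 8 and 4 in MISS WT, 8 and 5 in MISS KO, and 0 and 1 in AF2 KO. Fbln2 (fibulin-2), a matrix glycoprotein that binds Vcan, rose by 3.14 ± 0.18 in AF2 WT. Bcan (brevican), a relative of Vcan, was near background, with a mean level of -6.28 over all arrays. In AF2 WT it was at least 1.61-fold higher with E2, its placebo arrays being not well above background. Hapln1, the link protein that locks proteoglycans onto hyaluronan, was at least 3.96-fold lower with E2 in AF2 WT, where it was not well above background. It fell by 0.98 ± 0.38 in MISS WT and 1.16 ± 0.38 in MISS KO. Such bounds set the mean of the bright group against, on each dim array, the higher of the lowest signal well above background and the probe's own. A gene can enter the test through its bright group alone, so no p-value is given beside these bounds. In AF2 KO the changes were -0.45 ± 0.20 for Fbln2 and 0.22 ± 0.42 for Hapln1, not called.

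**Figure D5:**
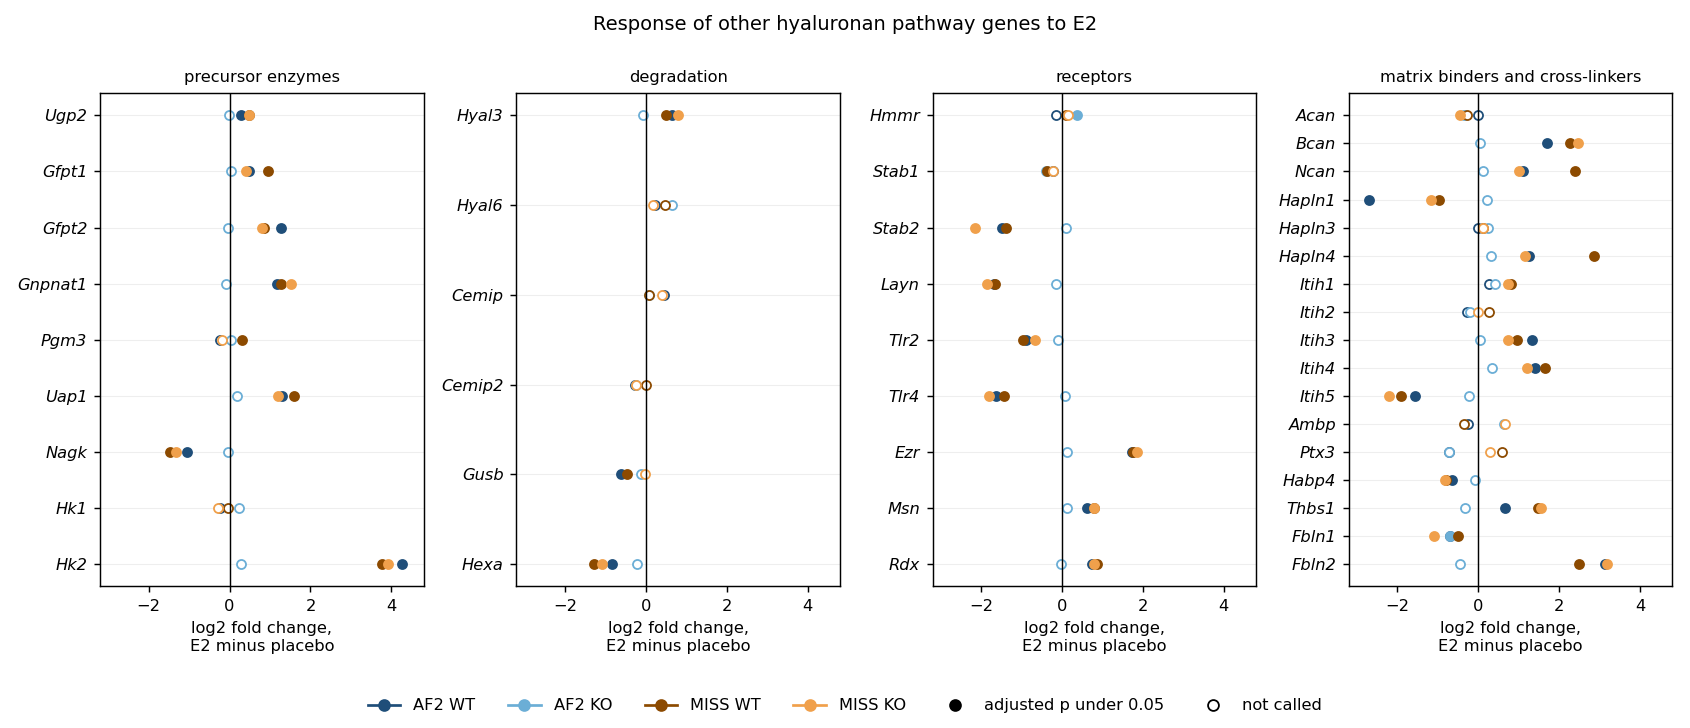
Log2 fold change of E2 minus placebo for the 41 other tested pathway genes in 4 panels by role (horizontal axis), with 1 point per genotype, filled for an adjusted p under 0.05. AF2 KO points lie between -0.72 and 0.64, whereas Hk2, Fbln2 and Ezr lie to the right and Hapln1, Layn and Hexa to the left in the other 3 genotypes.

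Across the 31 arrays, which share treatments and genotypes, the levels of Has1 and Hyal2 correlated at r = 0.962, Has1 and Lyve1 at 0.813, Has1 and Ugdh at -0.883, and Has1 and Has2 at -0.538. These are descriptions and carry no test. Of all named genes tested, Has1 was most like Got1, B4galt5 and Foxs1 (r = 0.993 for each), Hyal2 most like Ecsit (0.990), Snx11 (0.989) and Aatf (0.988), and Lyve1 most like Meox1 (0.943), Ackr2 (0.924) and Dlc1 (0.919). Tnfaip6 was most like Asap1 (0.943), Gm16062 (0.934) and Inhba (0.928). Has2 had no such close partner, with Cdca3 (0.811), Aspm (0.8) and Cytip (0.795) the nearest, and Vcan was nearest to Ptger2 (0.806), Ltbp2 (0.787) and Snx10 (0.785).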

How the data were processed

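RNA of 31 uterus samples was hybridised by the authors to 1-colour (Cy3) Agilent arrays and read out with Feature Extraction 10.10.1.1 of Agilent, as the submitters' processing notes state. Per the file headers, the processed signal is an intensity with background subtracted, not normalized between arrays, and 0/1 values mark spots as outliers, saturated (0 spots) or well above background. The authors' deposited matrix holds log2 values of 43753 probes with equal column medians of 7.56 and 83 empty cells, and its normalization is not given in the sources used here.

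Outlier spots were set missing, spots of a probe averaged on the log2 scale, and each array's 75th percentile subtracted. Probes were tested where some group had them well above background on all of its arrays (40337 of 55681 probes), and a gene was its brightest tested probe. A model with a mean per group was fitted with limma 3.58.1 (R 4.3.3) over 31 arrays for 10 contrasts, adjusted by Benjamini-Hochberg over all genes. A fit over all tested probes served to compare probes of a gene and was adjusted over those probes. The code was tested on simulated data. The 4 slides entered as a block in 1 alternative and in values within each slide. Positions of probes were taken from the array's annotation (mm9). No genome was used, so exons are not given. Of the 10 genes, 7 had a RefSeq promoter window.

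The 10 genes and all lists were chosen with earlier results of these data known. A result on another gene is not reported here. All 10 genes are named, and of each pathway list at most the 3 with the largest change among those called in AF2 WT. Nagk, Hmmr, Fbln1 and the cell type markers named were added after their values were seen. Likeness is given for genes whose group means span at least 1 log2 unit.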

Additional observations from a re-analysis of the deposited data

Results flagged for a closer look

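The response to E2 differed between AF2 KO and AF2 WT by a test of the difference itself for Has1 (-5.89), Lyve1 (-1.79), Hyal2 (-1.21), Has2 (1.19) and Ugdh (0.51), all as log2 values of KO minus WT. It differed between MISS WT and AF2 WT for Tnfaip6 (1.05) and Cd44 (0.80). Of these calls, 3 were fragile, as given above. That of Has2 was lost without 1 AF2 KO E2 array, with quantile normalization, with median scaling and with the authors' deposited matrix. The call of Ugdh was lost with median scaling. Cd44 lost its call in several settings and in 13 of 31 fits that left out 1 array.

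Of 70 groups of 4 arrays looked at over the 10 genes, 6 had an array far from the other 3 by Dixon's criterion, which chance alone gives in about 1 of 20. In MISS WT with E2, replicate 4 was low for Has1 (0.98, the others at 2.01 to 2.22) and high for Has2 (-3.01, the others at -3.38 to -3.35). In MISS WT with placebo, replicate 4 was low for Has2 (-2.94, the others at -2.31 to -2.30). Ugdh was low in MISS KO E2 replicate 4 (1.88, the others at 2.22 to 2.27), Vcan in AF2 WT placebo replicate 3 (-1.44, the others at -1.22 to -1.18), and Has3 in MISS KO placebo replicate 3 (-6.03, the others at -5.60 to -5.56), where it was not well above background.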

How the results depend on the processing

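No paired analysis was possible because the numbers of the replicates were given in deposition order and mark no shared mouse or day, and the slide was the block used instead. Each slide held 1 array of every group, except AF2 KO E2 on slide 2. With the slide block more of all genes were called: 10.2% against 3.68% with E2 in AF2 KO, and 4.14% against 0.898% in the MISS response difference. The wild-type response difference had 21.5% against 9.5%, and AF2 KO against WT under placebo 20.1% against 9.05%. In these comparisons the block left the counts of the 9 genes at 0, 0, 2 and 2. Under other processing settings, 232 values belong to single-gene results called above, of which 16 lost the call and 0 changed sign, and 488 to results not called, of which 16 gained the call and 28 changed sign. With 1 array left out, 45 of 899 called values lost the call and 0 changed sign, and 8 of 1891 others gained it and 32 changed sign. Within 1 slide, where no test was made, 69 of 231 values of results not called had the opposite sign, as had 2 of 111 values of called results, for Ugdh in the AF2 response difference (-0.03 within slide 1) and for Hyal1 in MISS WT (0.02 within slide 2). Of these 342 values within a slide, 167 moved by more than the spread between replicates with no such change of a called sign. A value within a slide rests on 1 array per group and so varies by more than that spread anyway. The count therefore cannot tell whether results depend on the slide. The number of genes whose responses differed between the wild types, 2, was 1 with quantile normalization, median scaling, the authors' deposited matrix, no filter on dim probes and the mean of probes, since Cd44 was lost each time, and 1 to 2 when each array was left out. The number that differed between AF2 KO and WT under placebo, 2, was 1 with no filter and with the mean of probes, and 1 to 2 when each array was left out. Median scaling added Hyal1 in AF2 KO (1 gene called, from 0) and Vcan in MISS WT against AF2 WT under placebo (0.54, limma adjusted p = 0.0345, 1 gene called, from 0). In the other comparisons the count stayed within 1.5 times, with 4 to 6 genes in the AF2 response difference and 6 to 8 in MISS WT when each array was left out. With 3 or 4 arrays a group, small changes such as those of Hyal1 and Cd44 lie at the limit of what passes, and Has3 lies too near background to be compared.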
